A study of Mus musculus with 9 samples.

Results

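DNA replication and mitosis genes were followed in whole cochleae of mice that differed in age and calorie intake. The set holds 40 genes, 12 of replication and 28 of mitosis. They were found as the probe sets whose platform annotation names 1 gene symbol, and that symbol one of the 40. Of the 40 genes, 39 had such a probe set, 94 probe sets in all. The exception was Ccnb1, the cyclin B1 gene. Each gene was read from its brightest probe set, and 36 genes had one above the signal filter described below, 10 of replication and 26 of mitosis. The whole table held 45037 probe sets and 18193 named genes, of which 13702 passed the same filter.

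The 3 groups, of 3 arrays each, were compared with one another, all of male C57BL/6 mice housed singly. CR mice were 15 months old and had eaten 62 kcal per week since the age of 2 months, a 26% reduction. MC mice were 15-month-old controls on 84 kcal per week. YC mice were 4-month-old controls on 84 kcal per week. Each array carried RNA pooled from 4 cochleae of 2 mice, so the spread between arrays covers 3 such pools a group and not single animals, and fewer cells of a type and less RNA per cell cannot be told apart in tissue pools of this kind.

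The deposited values are intensities per probe set. They were taken as log2(signal + 16) and quantile normalised over the 9 arrays, and the brighter 27022 probe sets, from the 40th percentile of the 9-array mean upward, were tested. In the table as deposited there were 2 classes of array. The CR arrays and YC array 1 had medians of 526.8 to 626.6, and the MC arrays and YC arrays 2 and 3 had medians of 842.4 to 1103.9. Every CR array is in one class and every MC array in the other, so a fit that separates class from group rests on the YC arrays, which lie in both. The label of the tissue was checked against 20 cochlear genes, of which 14 passed the filter. Otos, Coch, Gjb6 and Gjb2, genes of cochlear fibrocytes and supporting cells, had mean log2 signals of 14.14 to 15.61 in CR, 13.16 to 14.58 in MC and 12.93 to 14.56 in YC arrays. The prestin gene Slc26a5, the hair cell factor Pou4f3, Tecta, Kcne1 and Oc90 were below the filter. Markers of other tissues were also present, and the 16 skeletal muscle genes were all lower in CR than in MC arrays, with a median log2 change of -2.28, and 13 of them passed the test. Of 14 measured brain genes 11 were higher in CR than in MC arrays (median 1.25), as were 10 of the 14 cochlear genes (median 0.98), and none of these passed.

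Cells copy their DNA once per cycle and then divide it, and each step has its own gene set. Replication genes encode the Mcm2 to Mcm7 helicase, the sliding clamp and the enzymes that supply deoxynucleotides, and they are switched on at the start of S phase by E2F factors. Mitosis genes encode cyclins, kinases, spindle motors and checkpoint proteins; they are switched on later, in G2, through promoter elements called CHR (cell cycle genes homology region) and CCAAT boxes, bound by the MuvB core with B-Myb or Foxm1 and by NF-Y. The sensory epithelium of the adult mammalian cochlea is known for cells that do not divide, whereas the marrow of the surrounding temporal bone holds dividing blood precursors.

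Promoters were read from a RefSeq table of build GRCm38.p6, with 250 bases before and 50 after each gene's annotated start, and the first listed start was used for each gene. The table held 11 of the 12 replication and 24 of the 28 mitosis genes, all but Mcm4, Ccna2, Aurkb, Tpx2 and Foxm1. Both strands were searched for CHR (TTTGAA or TTCGAA), for CCAAT and for E2F elements (TTTCCCGC, TTTCGCGC, TTTGCCGC or TTTGGCGC). Places of different motifs may overlap. The following 7 promoters are shown from 150 bases before to 30 after the start, 5′ to 3′ on the gene's strand, with motif matches in capitals (a match on the other strand shows as the reverse complement). Mcm2, Mcm6 and Tk1 are shown as replication genes with a CHR, with E2F elements and with none of the motifs. Cdca8, Kif11, Kif23 and Mki67 are shown as mitosis genes with a CHR: the gene with the smallest p below, a pair whose brightest probe sets changed with opposite sign, and a label of cycling cells.
Mcm2 (chr6:88898751-88898930, minus strand): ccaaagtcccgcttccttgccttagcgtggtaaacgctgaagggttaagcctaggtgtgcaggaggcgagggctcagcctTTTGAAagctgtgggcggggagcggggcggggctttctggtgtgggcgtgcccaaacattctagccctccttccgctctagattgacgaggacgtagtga
Mcm6 (chr1:128359676-128359855, minus strand): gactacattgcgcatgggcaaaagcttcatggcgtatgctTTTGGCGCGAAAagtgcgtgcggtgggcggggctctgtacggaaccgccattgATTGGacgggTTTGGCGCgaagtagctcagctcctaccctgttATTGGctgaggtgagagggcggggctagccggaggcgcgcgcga
Tk1 (chr11:117825985-117826164, minus strand): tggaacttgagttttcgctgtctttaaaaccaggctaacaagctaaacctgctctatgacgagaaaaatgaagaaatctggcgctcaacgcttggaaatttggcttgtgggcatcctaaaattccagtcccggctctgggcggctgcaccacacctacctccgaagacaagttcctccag
Cdca8 (chr4:124936888-124937067, minus strand): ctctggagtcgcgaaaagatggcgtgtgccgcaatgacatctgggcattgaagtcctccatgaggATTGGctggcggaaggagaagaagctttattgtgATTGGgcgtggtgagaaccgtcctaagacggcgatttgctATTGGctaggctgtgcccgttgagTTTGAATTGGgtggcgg
Kif11 (chr19:37376232-37376411, plus strand): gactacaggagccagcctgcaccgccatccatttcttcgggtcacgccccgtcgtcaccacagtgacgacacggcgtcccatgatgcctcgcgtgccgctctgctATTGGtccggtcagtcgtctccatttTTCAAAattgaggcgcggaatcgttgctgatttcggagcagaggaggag
Kif23 (chr9:61946770-61946949, minus strand): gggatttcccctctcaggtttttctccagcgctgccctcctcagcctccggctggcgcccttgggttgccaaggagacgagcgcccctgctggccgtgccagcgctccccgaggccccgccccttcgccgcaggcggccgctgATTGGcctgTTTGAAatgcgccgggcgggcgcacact
Mki67 (chr7:135716350-135716529, minus strand): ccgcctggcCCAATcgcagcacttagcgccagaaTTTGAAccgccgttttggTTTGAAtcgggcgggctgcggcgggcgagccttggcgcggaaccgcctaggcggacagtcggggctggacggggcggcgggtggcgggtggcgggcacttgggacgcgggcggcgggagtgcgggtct

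The motifs were spread differently over the replication and the mitosis genes. A CHR lay in 19 of 24 mitosis promoters (79.2%) and in 2 of 11 replication promoters (18.2%), against 19.4% of all 27025 promoters in the table. E2F elements ran the other way. They lay in 1 mitosis promoter (4.17%), that of Cdk1, and in 5 replication promoters (45.5%), those of Mcm3, Mcm5, Mcm6, Mcm7 and Cdc6, against 2.32% of all promoters. CCAAT boxes were found in 20 mitosis promoters (83.3%) and 8 replication promoters (72.7%), against 37.9% of all. A CHR and a CCAAT box stood together in 18 mitosis promoters (75.0%), against 7.7% of all. In 18 mitosis genes a CHR began within 50 bases of the start, between 29 bases before and 41 after it, and in no replication gene did one begin that near. The Mcm2 CHR began 70 bases before the start, and Mcm6 held 3 E2F places, of which 2 overlap in the stretch TTTGGCGCGAAA. The letters describe the windows only; binding was not measured.

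**Figure D1:**
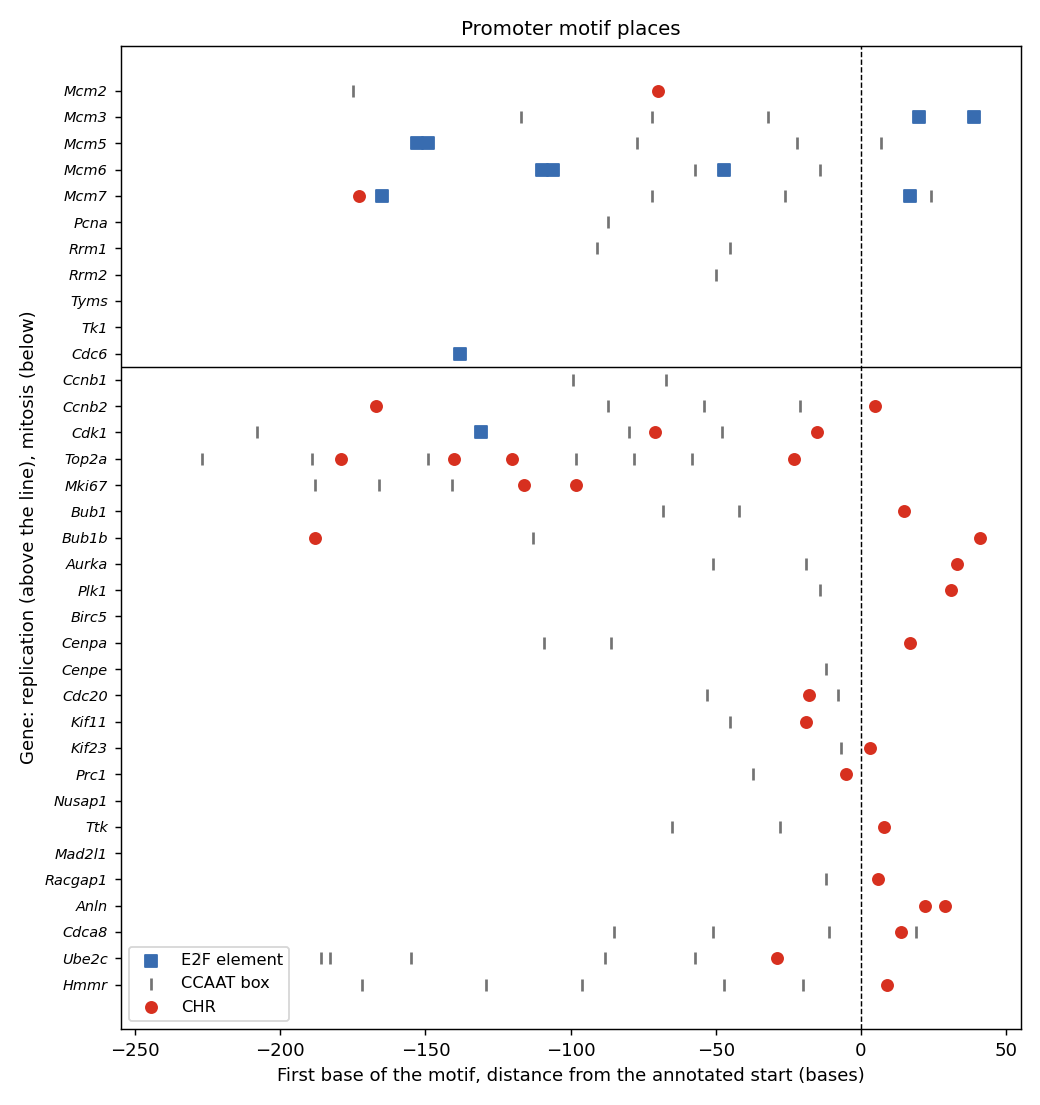
Places of CHR, CCAAT and E2F letters in the promoters of 11 replication genes (above the line) and 24 mitosis genes (below), as the distance in bases of the motif's first base from the annotated start. Red CHR points gather near the start in 18 mitosis genes, while blue E2F squares lie in 5 replication genes and in Cdk1.

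The first comparison asked how calorie restriction bears on these genes at 15 months of age. In CR arrays 22 of 26 mitosis genes were lower than in MC arrays and 4 were higher, with a median log2 change of -0.57. Among 10 replication genes, 6 were lower and 4 higher, with a median of -0.11. Over all probe sets tested 45.3% were lower and the median change was 0.08. With arrays centred on their medians instead of quantile normalised, the median of all probe sets was 0.58, 14 of 26 mitosis genes were lower (median -0.01) and 1 of 10 replication genes was lower (median 0.73). Relative to all probe sets the mitosis median was then -0.59 and the replication median 0.15, against -0.65 and -0.18 after quantile normalisation. With 1 array left out the mitosis median lay between -0.66 and -0.40. The replication median was -0.32 without CR array 1, -0.25 without MC array 1, -0.04 without CR array 2, -0.02 without MC array 2 and 0.01 without CR array 3.

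No single gene of the 36 passed the threshold of an adjusted p of 0.05 in CR against MC (limma, Benjamini-Hochberg over all 27022 probe sets), where 0.0925% of all probe sets, 25 in number, did. The smallest adjusted p was 0.146, for Cdca8. At an unadjusted p under 0.05, 6 of the 36 genes were lower and 2 higher, against 9.54% of all probe sets lower and 8.99% higher. CR and MC arrays did not overlap for 7 lower genes (Mcm2, Ccna2, Top2a, Cenpe, Kif11, Tpx2 and Cdca8) and 2 higher ones (Kif23 and Anln), against 18.2% of all probe sets lower and 19.5% higher without overlap. For lower genes the share without overlap is close to that of the whole table. The calls depended on the fit. Without YC array 2, Ccna2, Tpx2 and Cdca8 passed as lower, where 3.65% of all probe sets were called. With only CR and MC arrays fitted, Mcm2 passed as well, where 6.83% were called. With array weights, Kif11 and Foxm1 were added as lower and Kif23 as higher, where 12.6% were called.

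**Figure D2:**
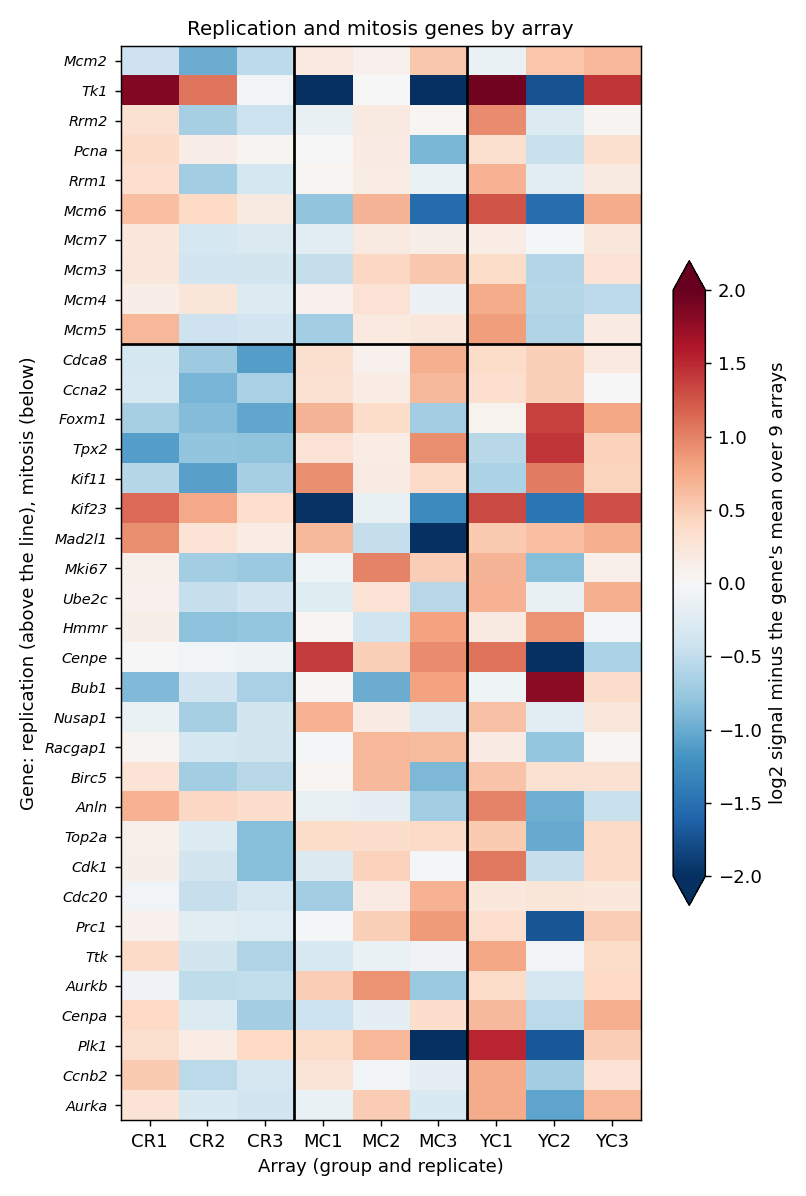
Each cell is the log2 signal of 1 gene on 1 array minus that gene's mean over the 9 arrays, for 10 replication genes (above the line) and 26 mitosis genes, with CR, MC and YC arrays from left to right; colours stop at 2 log2 units either way. CR array 1 is redder than the other CR arrays for 32 of 36 genes, and YC array 2 is the lowest YC array for 26.

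Among the replication genes, the helicase subunits, read from their brightest probe sets, had CR minus MC changes of both signs. Mcm2 had log2 signals of 11.73, 11.15 and 11.61 on CR arrays 1 to 3, against 12.34, 12.22 and 12.68 on MC arrays and 12.01, 12.70 and 12.80 on YC arrays. All 3 CR arrays lay below every control array of either age. The CR minus MC change was -0.92 (SE 0.27, adjusted p = 0.177), a level 1.89-fold lower in CR, and the CR minus YC change was -1.0 (SE 0.27, adjusted p = 0.457). The gene's other probe set past the filter differed in sign for CR minus MC, at 0.48. The remaining subunits had CR minus MC changes of -0.33 for Mcm3, -0.16 for Mcm7, -0.05 for Mcm4, 0.05 for Mcm5 and 0.94 for Mcm6, all with overlapping groups. The other probe sets of these subunits past the filter had changes from -1.39 for Mcm5 to 1.33 for Mcm7. Probe sets of the same subunit thus differed too, and a difference between subunits is not shown. Mcm6, whose promoter carries the E2F places shown above, was read with an SE of 0.70.

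Pcna encodes the sliding clamp that holds DNA polymerase on its template. It read 13.34, 13.09 and 13.02 on CR arrays, against 12.96, 13.12 and 12.05 on MC arrays and 13.28, 12.52 and 13.29 on YC arrays. The groups overlapped, with MC array 3 and YC array 2 lowest, and CR minus MC was 0.44 (SE 0.31, adjusted p = 0.442).

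Ribonucleotide reductase makes deoxynucleotides, with Rrm1 as its large and Rrm2 as its small subunit. Rrm1 read 12.01, 10.98 and 11.32 on CR arrays, against 11.72, 11.82 and 11.55 on MC arrays and 12.38, 11.47 and 11.85 on YC arrays. For Rrm2 the CR arrays read 13.20, 12.23 and 12.46, against 12.74, 13.07 and 12.94 for MC and 13.84, 12.62 and 12.95 for YC. In both genes CR arrays 2 and 3 were below all MC arrays and CR array 1 was above all 3, so that the groups overlapped. The CR minus MC change was -0.26 (SE 0.32, adjusted p = 0.668) for Rrm1 and -0.28 (SE 0.33, adjusted p = 0.647) for Rrm2. The other probe sets past the filter had changes of -0.14 for Rrm1 and of -0.36 and 1.07 for Rrm2, so those of Rrm2 differed in sign.

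Tk1 encodes the thymidine kinase of the salvage pathway. Its log2 signals were 10.80, 10.03 and 8.90 on CR arrays, against 6.75, 8.96 and 6.68 on MC arrays and 10.88, 7.22 and 10.38 on YC arrays. MC arrays 1 and 3 and YC array 2 were low, and CR array 3 lay just under MC array 2. The CR minus MC change of 2.45 had an SE of 1.0 (adjusted p = 0.238). Tk1 stood at the 40.14th percentile of mean signal, just inside the filter.

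Tyms and Cdc6 lay just outside the filter, at percentiles 32.05 and 38.62, and were not tested. Cdc6 loads the Mcm helicase on origins. Its signals were 9.85, 9.42 and 9.17 on CR arrays, 6.11, 6.96 and 8.56 on MC arrays and 10.55, 9.18 and 10.12 on YC arrays. The MC arrays were below all others. Tyms, thymidylate synthase, ranged over 7.71 to 9.04 on CR, 6.85 to 8.77 on MC and 8.93 to 9.73 on YC arrays. Its CR and MC arrays overlapped.

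**Figure D3:**
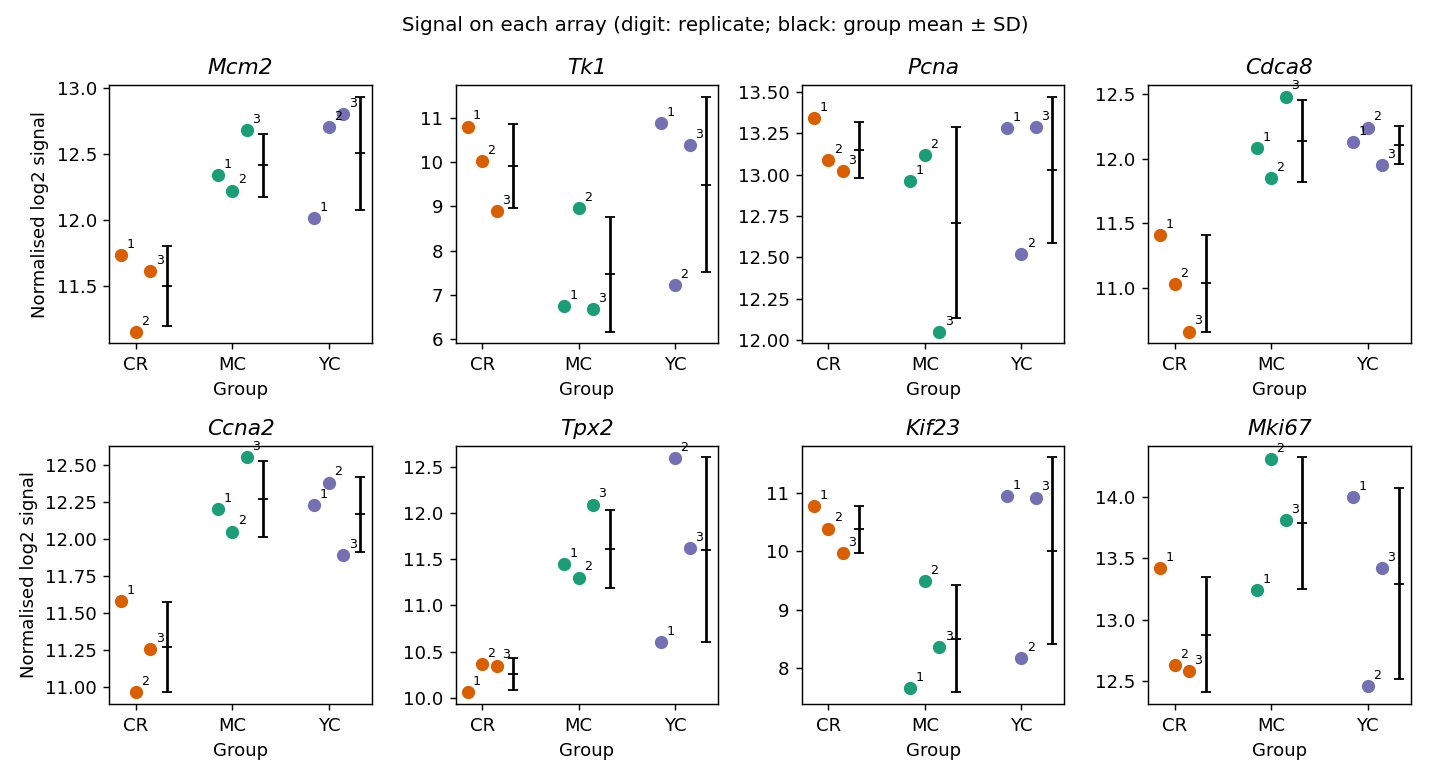
Normalised log2 signal on each array for 3 replication genes (Mcm2, Tk1, Pcna) and 5 mitosis genes, with the replicate number at each point and the group mean ± SD in black beside it; each panel has its own vertical range, which does not start at 0. CR points lie below all control points for Mcm2, Cdca8, Ccna2 and Tpx2, and the MC points and YC array 2 are the low ones for Kif23.

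Among the mitosis genes, the cyclins and their kinase drive entry into division. Ccna2, cyclin A2, read 11.58, 10.97 and 11.26 on CR arrays, against 12.20, 12.05 and 12.55 on MC arrays and 12.23, 12.38 and 11.89 on YC arrays. Every CR array lay below every control array. CR minus MC was -1.0 (SE 0.25, adjusted p = 0.149), a level 2.00-fold lower in CR, and CR minus YC was -0.90 (SE 0.25, adjusted p = 0.457). The second probe set of Ccna2 was also lower in CR, with a CR minus MC change of -0.49. Ccnb2, cyclin B2, and Cdk1, the kinase that both cyclins activate, had CR minus MC changes of -0.12 and -0.41, with overlapping groups.

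Foxm1 encodes the transcription factor that acts on many mitosis promoters. It read 9.73, 9.53 and 9.35 on CR arrays, against 11.08, 10.76 and 9.70 on MC arrays and 10.47, 11.77 and 11.17 on YC arrays. CR arrays lay below all YC arrays, and MC array 3 lay among the CR arrays. The difference between CR and MC was -0.98 (SE 0.45, adjusted p = 0.271) and CR minus YC was -1.60 (SE 0.45, adjusted p = 0.457), the lowest CR minus YC change among the 36 genes.

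The chromosomal passenger complex corrects kinetochore attachments and then directs cytokinesis. Its subunit borealin is encoded by Cdca8, which read 11.41, 11.03 and 10.66 on CR arrays, against 12.08, 11.85 and 12.48 on MC arrays and 12.13, 12.24 and 11.95 on YC arrays. The CR arrays were again below all 6 control arrays. Against MC the CR change was -1.10 (SE 0.27, adjusted p = 0.146), a level 2.15-fold lower in CR, and CR minus YC was -1.07 (SE 0.27, adjusted p = 0.414). The other probe sets of Cdca8 had CR minus MC changes of -0.38 and 0.32, so they did not all share this direction. The other passenger genes, Aurkb (the kinase) and Birc5 (survivin), had CR minus MC changes of -0.57 and -0.25, with overlapping groups.

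Spindle genes gave the lowest and the highest CR minus MC changes of the mitosis set. Tpx2, which nucleates spindle microtubules and activates aurora A, read 10.06, 10.37 and 10.35 on CR arrays, against 11.45, 11.30 and 12.09 on MC arrays and 10.60, 12.59 and 11.62 on YC arrays. CR arrays lay below all others, and YC array 1 was the nearest to them. Its CR minus MC change was -1.36 (SE 0.45, adjusted p = 0.19), and all 4 Tpx2 probe sets were lower in CR, with changes of -1.36, -1.32, -0.62 and -0.48.

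Kif11 is the motor that pushes spindle poles apart. Its signals were 9.49, 8.98 and 9.40 on CR arrays, against 10.99, 10.22 and 10.44 on MC arrays and 9.42, 11.09 and 10.51 on YC arrays. The CR arrays were below all MC arrays, and YC array 1 lay among the CR arrays. CR minus MC was -1.26 (SE 0.46, adjusted p = 0.211), and the other 2 probe sets had changes of -0.25 and 0.31.

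Kif23, the motor of the central spindle, went the other way. It read 10.77, 10.39 and 9.97 on CR arrays, against 7.66, 9.49 and 8.36 on MC arrays and 10.95, 8.17 and 10.92 on YC arrays. CR arrays were above all MC arrays and within the YC range, with YC array 2 among the low MC values. The fitted CR minus MC change was 1.87 (SE 0.75, adjusted p = 0.233). Kif11 and Kif23 thus had changes of opposite sign in their brightest probe sets. The promoter shown above for each gene holds 1 CHR and 1 CCAAT box. In the fit with array class as a term, both changes were positive, at 0.12 for Kif11 and 0.46 for Kif23. The brighter of the other Kif23 probe sets, below the filter, read 7.03, 8.23 and 9.18 on CR arrays. On MC arrays it read 10.48, 9.19 and 9.12. Racgap1, which joins Kif23 in the centralspindlin complex, had a CR minus MC change of -0.64 from its brightest probe set and 1.09 from its other one. Anln, anillin of the contractile ring, was higher in CR without overlap, with a change of 0.83 (SE 0.47, adjusted p = 0.353).

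Hmmr binds spindle microtubules. It read 11.21, 10.28 and 10.32 on CR arrays, against 11.13, 10.70 and 11.90 on MC arrays and 11.27, 12.00 and 11.05 on YC arrays. CR array 1 lay within both control ranges, and CR arrays 2 and 3 lay below them. CR minus MC was -0.64 (SE 0.40, adjusted p = 0.397), and all 3 probe sets past the filter were lower in CR, with changes of -0.57 to -0.79. The spindle genes Nusap1, Prc1, Aurka and Plk1 had changes of -0.58, -0.56, -0.16 and 0.69, with overlap.

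Several genes act on chromosome structure. Mki67, which coats mitotic chromosomes and is used as a label of cycling cells, read 13.42, 12.63 and 12.58 on CR arrays, against 13.24, 14.31 and 13.81 on MC arrays and 14.00, 12.46 and 13.42 on YC arrays. CR array 1 lay above MC array 1, and YC array 2 was the lowest of the 9. CR minus MC was -0.91 (SE 0.40, adjusted p = 0.262). Top2a, topoisomerase II alpha, which untangles sister chromatids, was lower in CR without overlap, with a change of -0.71 (SE 0.40, adjusted p = 0.352). The centromere genes Cenpe, a kinetochore motor, and Cenpa, the centromeric histone, had changes of -0.99 (SE 0.86) and -0.10 (SE 0.43). The other Cenpa probe set past the filter had a change of -1.44.

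Checkpoint genes delay anaphase until chromosomes are attached, and Cdc20 and Ube2c act in the ubiquitin step that ends the delay. Mad2l1 read 10.91, 10.25 and 10.13 on CR arrays, against 10.63, 9.50 and 6.60 on MC arrays and 10.50, 10.57 and 10.69 on YC arrays. Only MC array 3 stood far from the rest, and CR minus MC was 1.52 (SE 0.81, adjusted p = 0.329). Ube2c read 11.50, 10.96 and 11.04 on CR arrays, against 11.17, 11.71 and 10.86 on MC arrays and 12.11, 11.26 and 12.13 on YC arrays. Its CR and MC arrays overlapped, with a change of -0.08 (SE 0.33, adjusted p = 0.911). Bub1, Ttk and Cdc20 had CR minus MC changes of -0.59, -0.03 and -0.33. The other Cdc20 probe set past the filter had a change of -0.97. Bub1b lay below the filter, at percentile 34.52, and read 7.80 to 9.07 on CR, 7.45 to 9.36 on MC and 7.79 to 9.76 on YC arrays.

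**Figure D4:**
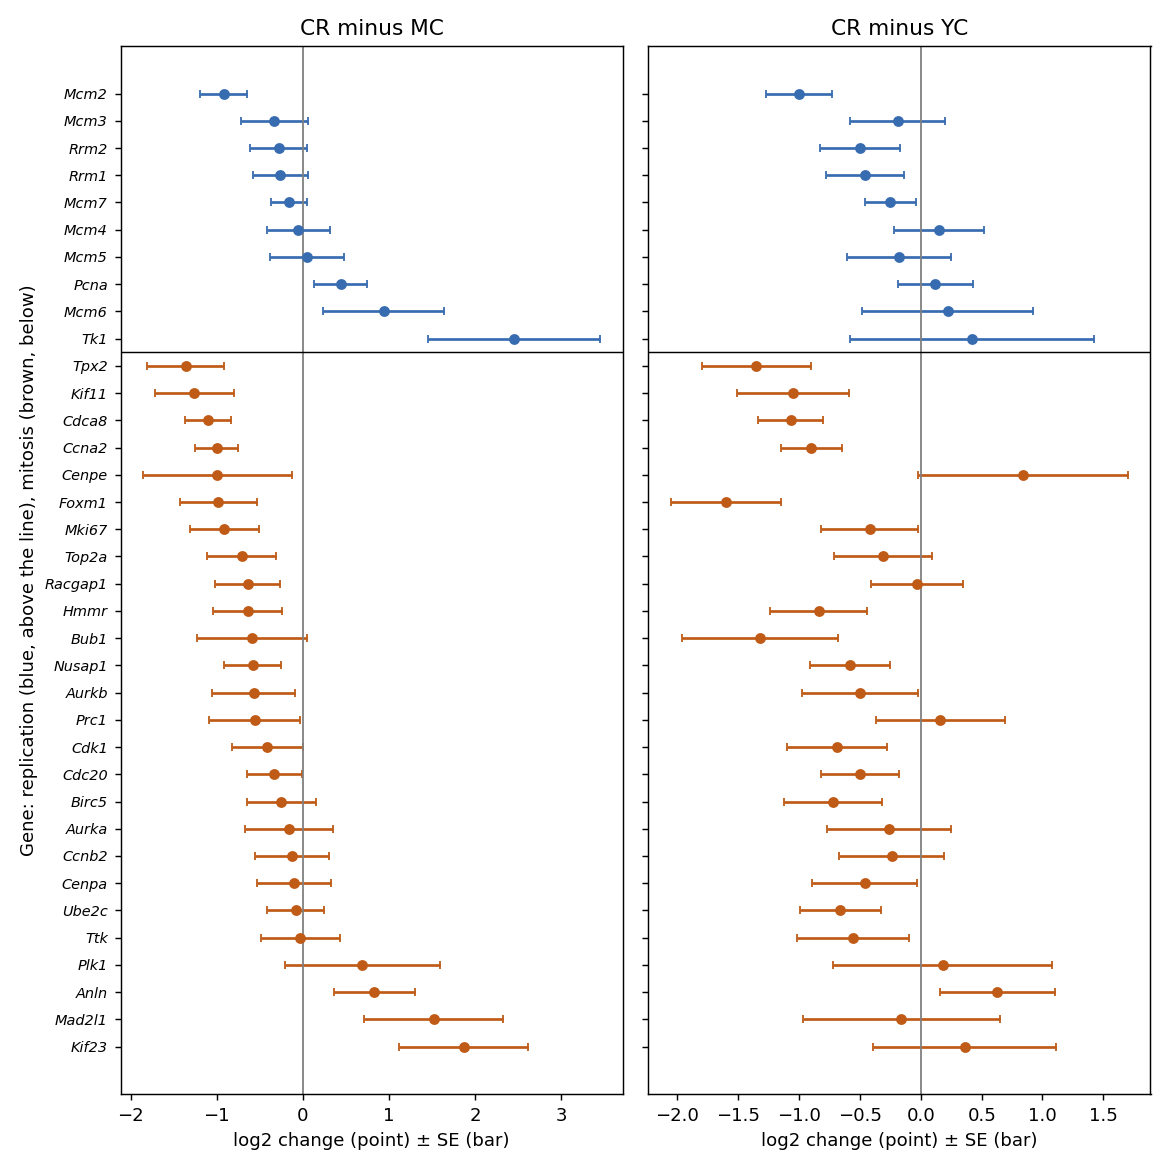
Fitted log2 change (point) and its SE (bar) for each of 10 replication genes (blue) and 26 mitosis genes (brown), as CR minus MC on the left and CR minus YC on the right, sorted within each set by CR minus MC; the panels share their CR arrays and differ in horizontal range. Points left of 0 number 22 of 26 mitosis genes for CR minus MC and 21 of 26 for CR minus YC, against 6 of 10 replication genes in each.

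The second comparison set restricted 15-month mice against young controls. It shares its CR arrays with the first, so the 2 comparisons are not independent. In CR arrays 21 of 26 mitosis genes were lower than in YC arrays (median -0.50) and 6 of 10 replication genes were lower (median -0.19), beside 45.3% of all probe sets and a median of 0.08. With arrays centred on their medians the median of all probe sets was 0.39, 17 of 26 mitosis genes were lower (median -0.32), and 3 of 10 replication genes were lower (median 0.30). Both medians moved when single arrays were left out. The mitosis median was -0.77 without YC array 2 and -0.34 without YC array 1, and the replication median was -0.58 without YC array 2, -0.11 without YC array 3 and 0.08 without YC array 1. Without CR array 1, 2 or 3 the replication median was -0.41, -0.04 or -0.05, and the mitosis median -0.70, -0.42 or -0.39. None of the 36 genes passed the adjusted threshold, as was so for all probe sets (0% called), while 6 genes were lower and 0 higher at an unadjusted p under 0.05, against 5.56% and 5.21% of all probe sets. Without YC array 1, Tpx2 passed as lower, where 1.34% of all probe sets were called. CR arrays lay below all YC arrays for 8 genes, namely Mcm2, Ccna2, Bub1, Birc5, Cdc20, Tpx2, Foxm1 and Cdca8, and above them for none, against 9.1% and 11.4% of all probe sets.

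The third comparison was of age on the control diet. In MC arrays 16 of 26 mitosis genes were lower than in YC arrays (median -0.14) and 8 of 10 replication genes were lower (median -0.21), beside 47.7% of all probe sets and a median of 0.02. With arrays centred on their medians the median of all probe sets was -0.15, 21 of 26 mitosis genes were lower (median -0.37), and 10 of 10 replication genes were lower (median -0.53). Without YC array 1 the mitosis median was 0.06 and the replication median -0.02, so the sign for mitosis genes rested on that array. Over all arrays left out in turn the medians ran over -0.24 to 0.06 for mitosis and -0.45 to -0.02 for replication genes, with the lowest replication median without YC array 2 and the lowest mitosis median without MC array 2. The mitosis median was -0.05 without MC array 3 and -0.09 without YC array 3, and the replication median was -0.09 without MC array 1. No member and no other probe set passed the adjusted threshold in limma (0% called), and 0 of 36 genes were lower and 0 higher at an unadjusted p under 0.05, against 2.03% of all probe sets lower and 1.36% higher, or 3.39% in either direction. Only Ttk, a checkpoint kinase, was lower in MC without overlap, with a change of -0.53 (SE 0.46, adjusted p = 1.0), and no gene was higher without overlap, against 2.92% of all probe sets lower and 2.97% higher. The changes ran over -2.03 for Tk1, -1.68 for Mad2l1 and -1.51 for Kif23 at the low end to 1.83 for Cenpe at the high end. These 4 genes had SEs of 0.75 to 1.0, and each varied widely among the arrays of 1 group. In the moderated F test over the 3 groups, 6 of 36 genes had an unadjusted p under 0.05, against 11.9% of all probe sets, and the smallest adjusted p was 0.306.

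Within CR and within YC the genes tended to be high or low on the same array. CR array 1 was the highest CR array for 32 of the 36 genes, against 33% of all probe sets. The lowest YC array was YC array 2 for 26 of 36, against 44.7% of all probe sets, and the highest was YC array 1 for 20, against 37.9%. YC array 2 was the highest YC array for 8. Within MC no array stood out as much. MC arrays 1 to 3 were highest for 7, 16 and 13 genes and lowest for 12, 9 and 15. With the table as deposited the counts for CR array 1 and YC array 2 were 30 and 24, and with arrays centred on their medians they were 33 and 31. Expressed as the median over genes of the log2 signal minus each gene's mean, the mitosis level was 0.09, -0.42 and -0.52 on CR arrays, 0.04, 0.17 and 0.15 on MC arrays and 0.55, -0.28 and 0.38 on YC arrays. For replication genes these levels were 0.32, -0.37 and -0.32 on CR, -0.19, 0.18 and -0.04 on MC and 0.73, -0.51 and 0.25 on YC arrays. Within CR and within YC the arrays spanned a wider range than the group means, which were -0.28, 0.12 and 0.22 for mitosis genes and -0.12, -0.02 and 0.16 for replication genes in CR, MC and YC.

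CR array 1 was also the highest CR array and YC array 2 the lowest YC array in the erythroid, neutrophil lineage, macrophage and brain marker lists. The same held for the lists of other replication and other mitosis genes described below. There CR array 1 was the highest CR array for 29 of 39 and 28 of 36 genes. YC array 2 was the lowest YC array for 27 and 19 of them. The level of 13 measured erythroid genes, of 18 listed, was 0.01, -0.55 and -0.47 on CR arrays, -0.04, 0.39 and 0.29 on MC arrays and 0.66, -0.28 and 0.29 on YC arrays. The level of 15 measured neutrophil lineage genes, of 17 listed, was 0.03, -0.43 and -0.48 on CR arrays, 0.23, 0.42 and -0.14 on MC arrays and 0.70, -0.26 and 0.34 on YC arrays. CR array 1 was the highest CR array for 11 of 13 erythroid and 13 of 15 neutrophil genes, and YC array 2 the lowest YC array for 9 and 13 of them. The summed signal of the erythroid list ran over 60670 to 89461 on CR, 85487 to 120395 on MC and 83325 to 138679 on YC arrays, and that of the neutrophil list over 227149 to 314660, 234558 to 407504 and 254447 to 436331 on the same groups. No marker was listed at 0, since every deposited signal was above 0. In CR against MC, 12 of 13 erythroid genes (median -0.50) and 13 of 15 neutrophil genes (median -0.40) were lower, beside 45.3% of all probe sets. Slc4a1, the anion exchanger of red cells, had the lowest erythroid change, -0.84 (SE 0.23, adjusted p = 0.164 in limma). Ngp, a neutrophil granule gene, had one of -0.75 (SE 0.23, adjusted p = 0.182). Other named markers changed less or rose, with -0.19 for Alas2, 0.24 for Cldn13 and 0.11 for Ltf. The part of erythroid and neutrophil cells in the lower mitosis signals of CR arrays was not tested.

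**Figure D5:**
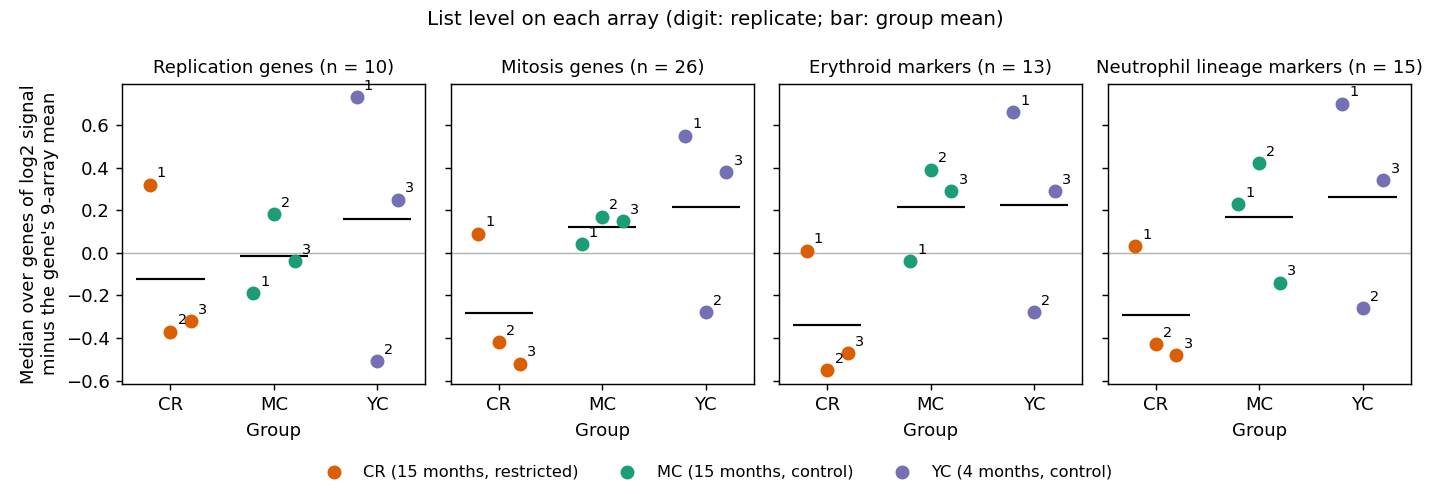
Level of 4 gene lists on each array, as the median over genes of the log2 signal minus the gene's mean over 9 arrays, with the replicate number at each point and a bar at the group mean. In all 4 panels CR array 1 lies above the other CR arrays, YC array 1 is the highest of the 9, and YC array 2 lies below the other YC arrays.

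Of 14 B cell precursor genes 7 passed the filter, and Vpreb1, Rag1, Rag2, Dntt, Cd79b and Pax5 did not. Their level was 0.17, 0.38 and 0.15 on CR arrays, -0.44, 0.08 and -0.50 on MC arrays and 0.36, -0.45 and 0.41 on YC arrays, with YC array 2 lowest of its group but CR array 2 highest of its own, and their summed signal ran over 11663 to 13450, 8467 to 10415 and 6062 to 12895. The 12 macrophage genes, all measured, had levels of 0.06, 0.01 and -0.14 on CR arrays, -0.07, 0.33 and 0.20 on MC arrays and 0.22, -0.18 and 0.32 on YC arrays, with CR array 1 highest and YC array 2 lowest of its group. Their summed signals were 222576 to 234887, 174864 to 264670 and 197272 to 258006 on CR, MC and YC arrays. For brain genes the levels were 1.03, 0.55 and 0.46 on CR, -0.18, -0.60 and -0.43 on MC and 0.27, -0.53 and -0.11 on YC arrays, with CR array 1 and YC array 1 highest and YC array 2 lowest. The muscle list also had CR array 1 highest of the CR arrays, at -0.93 beside -1.51 and -1.58, but YC array 1 lowest of the YC arrays. The cochlear list had CR array 1 lowest of its group, at 0.24 beside 0.85 and 0.56. Whether cells of any of these lists carry the replication and mitosis signals was not tested.

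Because array class follows group so closely, the comparisons were also made inside each class. In the low-median class the 3 CR arrays could be set only against YC array 1. All 10 replication genes (median -0.79) and all 26 mitosis genes (median -0.87) were lower in CR there, beside 51.6% of all probe sets and a median of -0.01, and none of the 36 was called. The comparison rests on 1 young array, the highest of the 9 for both sets. In the high-median class, MC arrays against YC arrays 2 and 3, 5 of 10 replication genes (median -0.02) and 12 of 26 mitosis genes (median 0.06) were lower in MC, beside 49.0% of all probe sets. With array class as a term in the fit of all arrays, CR minus MC was -1.14 for Cdca8 and -1.10 for Ccna2. The same term gave -0.18 for Mcm2, 0.14 for Tpx2, 0.12 for Kif11 and 0.02 for Foxm1, genes for which YC array 1 was the lowest YC array. In that fit 20 of 26 mitosis genes (median -0.90) and 8 of 10 replication genes (median -0.78) were lower in CR than in MC. Beside them stood 51.8% of all probe sets and a median of -0.03. The only control array in the low class is YC array 1. These values therefore rest on that 1 array too, and cannot decide whether CR and MC differ apart from class.

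Genes with several probe sets past the filter were read again from all of them. There were 20 such genes. In CR minus YC all probe sets of a gene had 1 sign for 16 genes, 12 of them lower. For CR minus MC that held for 10 genes, of which 8 were lower in CR, namely Rrm1, Ccna2, Top2a, Cenpa, Cdc20, Tpx2, Foxm1 and Hmmr. In MC minus YC it held for 7 genes. Over all 66 member probe sets past the filter, 45 were lower in CR than in MC (median -0.27) and 48 lower in CR than in YC (median -0.44). The brightest probe sets of 9 genes have an _x_ or _s_ in their ID, by which the platform marks probes that may also bind other transcripts. These are Mcm2, Mcm3, Mcm5, Mcm7 and Rrm2 of replication, and Aurkb, Cdc20, Prc1 and Cdca8 of mitosis. Where a gene had a probe set with a plain _at suffix, that set was also used instead. The CR minus MC median was then 0.20 for replication and -0.48 for mitosis genes.

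Other genes of the same processes were read from lists of replication factors, mitosis genes and cell cycle regulators. Of 39 measured replication factors, of 44 listed, 17 were lower in CR than in MC (median 0.12), 15 lower in CR than in YC (median 0.21) and 15 lower in MC than in YC (median 0.08). Of 36 measured mitosis genes, of 48 listed, 23 were lower in CR than in MC (median -0.18), 28 lower in CR than in YC (median -0.31) and 23 lower in MC than in YC (median -0.08). The 26 measured regulators, of 29 listed, were split 13 lower and 13 higher in CR minus MC (median -0.03), with 17 lower in each of the other comparisons. No gene of these lists passed the adjusted threshold.

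The replication factor Pola2, a subunit of the polymerase that lays the first primers, had a CR minus MC change of 2.12 (SE 0.57, adjusted p = 0.162), and the origin subunit Orc3 one of 1.25. Mcm10, which helps to start the Mcm helicase, had one of -0.92 (SE 0.30, adjusted p = 0.187) and Dnmt1, which copies DNA methylation onto the new strand, one of -0.65. Among the other mitosis genes Haus1, of the augmin complex that branches spindle microtubules, had a CR minus MC change of 3.15 (SE 0.78, adjusted p = 0.146). It read 10.86, 10.66 and 10.06 on CR arrays, against 8.02, 7.31 and 6.80 on MC arrays and 10.73, 7.44 and 9.82 on YC arrays. The MC arrays and YC array 2 were low, as with Kif23. The chromosome motor Kif4, citron kinase Cit and the spindle pole gene Aspm had CR minus MC changes of -1.0, -0.92 and -0.93, each without overlap between CR and MC. Of the 36 measured genes of this list, 5 were lower and 2 higher without overlap. Over all probe sets the shares were 18.2% lower and 19.5% higher. Among the regulators E2f5, a repressor E2F, had a CR minus MC change of -1.80 (SE 0.45, adjusted p = 0.146). The pocket protein gene Rbl2, the mitosis-delaying kinase gene Wee1 and the E2F partner Tfdp2 had changes of 0.91, 1.70 and -0.35. The same motif search found a CHR in 62.5% of 40 other mitosis promoters and 20.0% of 35 other replication promoters, and E2F elements in 4 of the mitosis and 9 of the replication promoters.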

How the data were processed

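RNA of 9 pooled cochlea samples was measured on 1-colour arrays. The authors' deposited table holds a linear intensity per probe set and array, made with GCOS 1.3 per the submitters' processing notes. Neither the signal algorithm nor the scaling target is given in the sources used here. Each array's mean after trimming 2% at either end is 1494 to 1496, so arrays were scaled separately. Of 45037 probe sets, 34945 have 1 gene symbol, 932 several and 9160 none here, and 34741 matched the RefSeq table by gene ID. Deposited intensities were turned into log2(signal + 16), quantile normalised, and kept from the 40th percentile of mean log2 signal upward. Group means of all 9 arrays were fitted in limma 3.58.1 under R 4.3.3 (lmFit, eBayes with a variance trend), two-sided, with Benjamini-Hochberg adjustment over all probe sets and a threshold of 0.05. Fold changes are on the log2(signal + 16) scale, which understates the change of dim genes. The number of arrays limits precision, with a median SE of 0.42 for a member's log2 change.

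All members may be named. Values on every array are given for the 5 replication and 10 mitosis genes with the smallest p of the F test, and for Cdc6 and Haus1, which were chosen after their values were seen. From each other list the 4 genes with the smallest F p, and from marker lists the 2 brightest and the 2 with the smallest p, may be named. The members and all lists were chosen with earlier results of these data known, so lists are described without a test. Alternatives covered pseudocounts, filters, scaling, variance trend, array weights, the groups fitted, the replicate number as a block, array class and median, each array left out, and the choice of probe set. The fit was tested on simulated data.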

Additional observations from a re-analysis of the deposited data

How the results depend on the processing

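Calls in CR minus MC, 25 probe sets, depended on the fit: there were 0 with arrays centred on their medians, without a variance trend, with array class as a term or with array medians in the fit, 7 with the table as deposited, 1846 with only CR and MC arrays, 3397 with array weights (whose fit stopped before full convergence) and 0 to 987 with 1 array left out (highest without YC array 2; 251 without YC array 1, 48 without MC array 2, 2 without CR array 1). In CR minus YC there were 0 calls, 3 within the low-median arrays and 0 to 363 with 1 array left out (highest without YC array 1). The F test had 0 calls, 1 without a filter, 1 as deposited, 1027 with array weights and 0 to 146 with 1 array left out. Replicate numbers were checked as possible pairs: of 9 pairs of arrays with the same number, 2 had a correlation of deviations over 0.1. These were CR and YC arrays 1 (0.266) and CR and YC arrays 2 (0.157), and the lowest was -0.29. Some arrays with different numbers correlated as much, as MC array 3 and YC array 2 did (0.275). These values cannot decide whether the numbers mark pairs. The replicate block gave 0 calls in CR minus MC. It could not move the medians of the members, since every group holds the same replicate numbers.

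The mitosis median in CR minus MC, -0.57, was -0.01 with arrays centred on their medians (-0.59 relative to all probe sets), -0.90 with array class, -0.86 with array medians as covariate, and -0.66 to -0.40 with 1 array left out. The replication median in CR minus MC, -0.11, had no stable sign: 0.73 with arrays centred on their medians, 0.30 when a gene's probe sets were averaged, -0.78 with array class, -0.81 with the covariate, and -0.32 to 0.01 with 1 array left out. In CR minus YC the replication median, -0.19, was -0.79 with array class and within the low-median arrays, -0.76 with the covariate, and -0.58 to 0.08 with 1 array left out, and the mitosis median, -0.50, was -0.77 to -0.34. In MC minus YC, leaving out 1 array gave -0.45 to -0.02 for replication (-0.21) and -0.24 to 0.06 for mitosis genes (-0.14), and arrays centred on their medians gave -0.53 and -0.37. The values with array class rest on YC array 1, the only control array of the low-median class. The cause of these shifts was not tested. Of 966 values of 15 single genes under the alternatives, 62 changed sign, 33 of them in MC minus YC, and 15 passed the threshold.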
